A study of Mus musculus with 20 samples.

Results

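ATP-binding cassette (ABC) transporters are membrane proteins that use ATP to move lipids, bile salts, drugs and metabolites across membranes. The 50 genes described here were all those of the 35204 in the deposited count table whose symbol is Abca to Abcg followed by a number, and 43 of them were among the 16306 genes abundant enough to be tested. They cover 7 subfamilies, with 16 Abca, 10 Abcb, 10 Abcc, 4 Abcd, 1 Abce, 3 Abcf and 6 Abcg genes. In the small intestine, transporters on the luminal side of enterocytes return absorbed drugs, plant sterols and conjugates to the lumen, and others on the basal side pass cholesterol and anions to the blood. Members of the Abcb and Abcd subfamilies also serve mitochondria, peroxisomes and lysosomes, whereas Abce1 and the Abcf genes lack membrane domains and act with ribosomes. Several of these genes are known targets of nuclear receptors for bile acids, oxysterols and foreign compounds.

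RNA from whole terminal ileum was compared between diets and between mice with and without a depleted microbiota. Female C57BL/6 mice, aged 7 weeks at the start, were fed a control amino acid diet (CD) or the same kind of diet lacking tryptophan (TDD) for 3 weeks. They either stayed specific pathogen-free (SPF) or drank ampicillin, vancomycin, gentamycin, metronidazole and neomycin (ABX) in water with added sucrose. Each of the 4 groups held 5 mice. The study's methods do not say whether SPF mice also drank sucrose, so effects of ABX and of sucrose cannot be told apart here. Poly-A RNA was sequenced to 36676963 to 58662617 estimated counts per mouse. Levels are given as CPM (counts relative to library size) on the TMM scale, which suits the same gene in different mice, or as TPM (transcripts relative to all transcripts of a mouse), which corrects for length and suits different genes in the same mice. Fold changes are given with their standard error (SE). A gene is said to have passed where the Benjamini-Hochberg adjusted p (q) of edgeR's quasi-likelihood test over all genes tested was under 0.05. The labels do not say whether mice of a group shared a cage, and p-values measure only the spread between these mice.

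The libraries were not alike in tissue makeup. The ileal bile acid genes Fabp6 and Slc10a2 mark this segment. They were low in the 10 SPF mice, at 0.238 to 3.91 and 1.38 to 8.80 CPM. In the 10 ABX-treated mice they stood at 2.65 to 144 and 13.2 to 86.1 CPM, so Fabp6 overlapped and Slc10a2 did not. The labelled segment was thus weakly marked in SPF mice and unevenly in ABX-treated mice. Whether the sampled segment differed with ABX was not tested. CD mouse 2 had the lowest summed level of the 7 enterocyte markers (13309 CPM) and the highest of the 7 smooth muscle markers (3305 CPM). CD mouse 5, TDD mice 4 and 5 and CD+ABX mice 1 and 2 held liver or pancreas transcripts at 10.9 to 34.1 CPM for the highest marker. Of 5 macrophage markers, 5 fell with TDD in SPF mice and 5 with ABX on CD, and of 5 T cell markers 4 fell with ABX on CD (edgeR, q under 0.05). Among all genes tested, 7.73% passed as lower and 6.7% as higher with TDD in SPF mice, and 7.43% as lower with ABX on CD. Other lists also changed with TDD in SPF mice, with 3 of 4 plasma cell markers higher and 2 of 5 fibroblast markers lower. In bulk tissue, fewer cells of a type and less RNA per cell cannot be told apart.

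Per length, the sterol pair led the family. Abcg5 had a mean of 244 TPM over the 20 mice and Abcg8 144 TPM, and both proteins form 1 exporter of plant sterols and cholesterol in the luminal membrane. Abcc2, which exports conjugated anions and drugs, followed at 137 TPM, then Abcd3, a peroxisomal fatty acid importer, at 112 TPM, and Abcb1a, the P-glycoprotein of the intestine, at 96.8 TPM. These 5 genes held 54.7% to 61.3% of the summed TPM of the family in the 4 groups. The sum was 1256 ± 162 TPM on CD, 1300.2 ± 80.4 on TDD, 1128 ± 82.2 on CD+ABX and 1295 ± 72.9 on TDD+ABX (SD, n = 5 each), and the groups overlapped. Abcg2, which exports drugs and urate, was the next in order with 86.3 TPM, and the 4 ribosome-associated genes lay between 22.1 TPM (Abcf2) and 62.8 TPM (Abcf1). The bile salt pump of the liver, Abcb11, stayed at or under 0.116 TPM in every mouse. It was 1 of 7 genes not tested, with Abca13, Abca15, Abca16, Abca17, Abcb5 and Abcc12, none of which had more than 15 counts in any mouse.

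**Figure D1:**
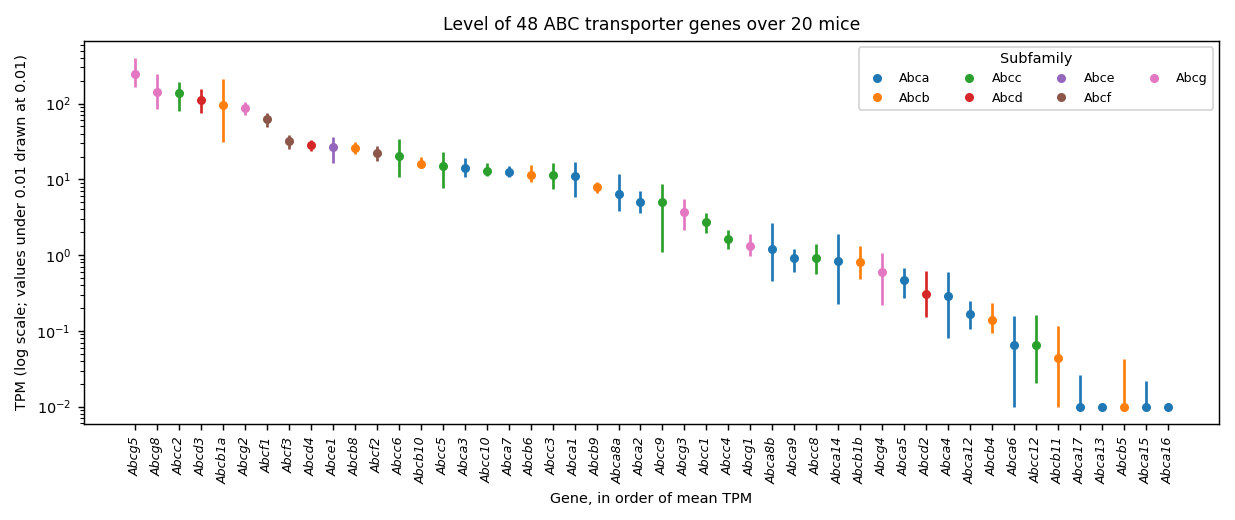
Level of 48 of the 50 ABC genes in TPM on a log axis, in order of their mean over 20 mice. Points are means, lines run from the lowest to the highest mouse, and colours mark the subfamilies. Abcg5 leads at 244 TPM and Abcb1a spans 31.5 to 212 TPM.

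In SPF mice, TDD feeding was followed by higher levels of 5 ABC genes, and no ABC gene passed as lower. Abcb1a rose 2.87-fold, Abca14 2.77-fold, Abcc5 1.92-fold, Abcc2 1.61-fold and Abcc4 1.28-fold. The 5 were 11.6% of the 43 tested members, and 14.4% of all genes tested passed in this comparison (6.7% as higher and 7.73% as lower). At a change of at least 2-fold the count was 2, Abcb1a and Abca14, where 1.84% of all genes tested were called. Of the 43 members, 28 were higher and 15 lower on TDD, with a median log2 fold change of 0.10 against 0.01 over all genes tested.

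With ABX, 1 ABC gene passed between the diets. Abcb1a rose 2.22-fold, where 1.77% of all genes tested passed (0.681% as higher, 1.09% as lower, and 0.331% at 2-fold or more). At an unadjusted p under 0.05 the count was 9 of 43, beside 14.8% of all genes. The difference between the diet effects with and without ABX was tested as an interaction, and 0 of 43 members passed (edgeR), where 0.0368% of all genes did. At an unadjusted p under 0.05 the interaction count was 3, namely Abcc5, Abca14 and Abcb10, beside 8.9% of all genes tested, and DESeq2 called 1, Abcc5.

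More members passed for ABX treatment than for diet, on either diet and in both directions. On CD, 11 ABC genes passed, with 7 higher and 4 lower, which is 25.6% of the 43 members where 12.8% of all genes tested passed (5.35% as higher and 7.43% as lower). On TDD, 15 passed, with 6 higher and 9 lower, which is 34.9% where 15.5% of all genes passed (7.19% as higher and 8.3% as lower). The median log2 fold change of the members was -0.04 on CD and -0.13 on TDD, against 0.00 and -0.03 over all genes. At a change of at least 2-fold the count was 1 on each diet, Abcb1a on CD and Abca14 on TDD, where 2.3% and 1.67% of all genes were called. The 4 comparisons share groups of mice with one another, so their calls are not independent. In all, 8 genes passed with ABX on both diets, each in the same direction. Abcb1a, Abca8b, Abcd3 and Abcf1 rose, and Abcg5, Abcg8, Abcc6 and Abca3 fell. A further 3 passed on CD only and 7 on TDD only, and the interaction test did not separate them.

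**Figure D2:**
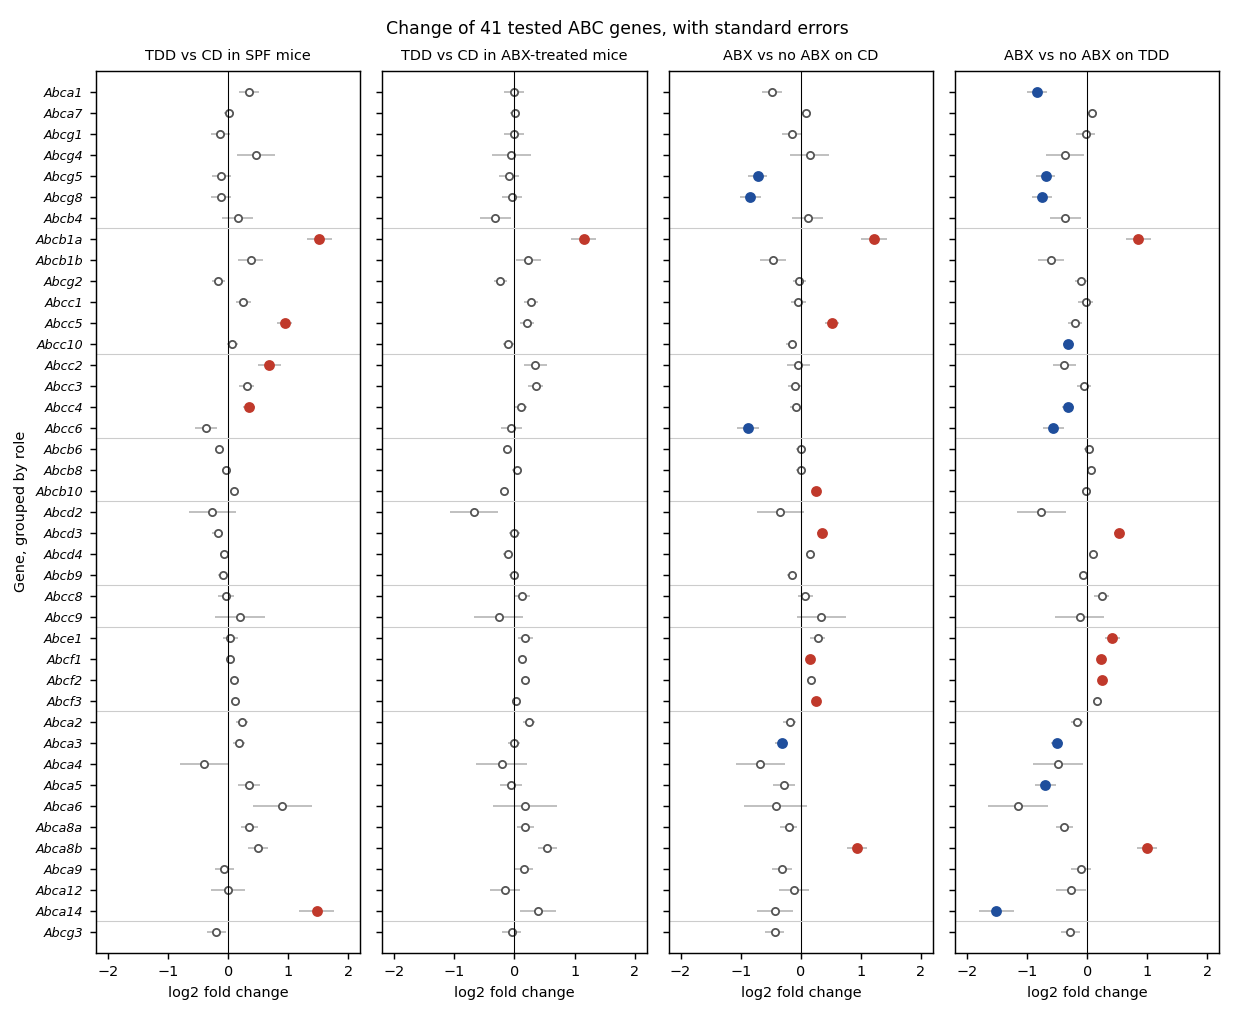
Log2 fold change of 41 of the 43 tested ABC genes in the 4 comparisons, with standard errors as grey bars and genes grouped by role. Filled points passed at q under 0.05 in edgeR's quasi-likelihood test, red for higher and blue for lower, and Abcb1a is filled in all 4 panels.

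Abcb1a and Abcb1b encode the P-glycoproteins of the mouse, which pump many drugs and foreign compounds out of cells. The genes lie next to each other on the plus strand of chromosome 5 (GRCm38), Abcb1a at 8660077 to 8748575 and Abcb1b at 8798147 to 8866315. Their coding sequences were identical at 88.1% of 3822 aligned bases, and the counts come from matches of 31 bases. Of the 31-base words of each gene's transcripts, 76.7% of those of Abcb1a and 84.1% of those of Abcb1b occurred in no other gene. The stretches printed here come from GENCODE M21 transcripts on GRCm38.p6 and show how near the genes are to each other, first a window of 60 bases in which they do not differ, at coding bases 328 to 387 of Abcb1a, and then a window with the median number of differences, 4, in capitals, at coding bases 3296 to 3355 of Abcb1a and 3302 to 3361 of Abcb1b.
Abcb1a and Abcb1b, alike: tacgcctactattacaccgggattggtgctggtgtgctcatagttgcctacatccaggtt
Abcb1a, median window: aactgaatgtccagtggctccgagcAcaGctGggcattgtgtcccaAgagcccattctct
Abcb1b, median window: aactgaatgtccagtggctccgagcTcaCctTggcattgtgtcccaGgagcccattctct
Reads from a stretch like the first cannot be placed by sequence alone, so levels of the pair rest on the other stretches.

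Abcb1a was the only member that passed in all 4 comparisons. In mice 1 to 5 of each group it stood at 122, 108, 137, 153 and 115 CPM on CD and at 349, 283, 364, 396 and 430.1 CPM on TDD. With ABX it stood at 318, 286, 217, 167 and 489.6 CPM on CD and at 629, 748, 669, 491 and 748 CPM on TDD. Every CD mouse lay under every mouse of the other 3 groups, every TDD+ABX mouse lay above all others, and TDD and CD+ABX mice overlapped. For TDD the log2 fold change was 1.52 in SPF mice (SE 0.21, q = 0.000139) and 1.15 with ABX (SE 0.21, q = 0.00924, edgeR). For ABX it was 1.22 on CD (SE 0.21, q = 0.00129) and 0.85 on TDD (SE 0.21, q = 0.0117, edgeR). The interaction was -0.37 (SE 0.29, q = 0.779, edgeR), so the size of the diet effect was not shown to differ between SPF and ABX-treated mice. The same held for the size of the ABX effect on each diet.

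Without the 5 mice that held liver or pancreas transcripts, Abcb1a had log2 fold changes for TDD of 1.34 in SPF mice (q = 0.0191) and 1.16 with ABX (q = 0.0763, edgeR). For ABX they were 1.18 on CD (q = 0.0308) and 0.998 on TDD (q = 0.0510, edgeR). In all other fits, including those without any single mouse, Abcb1a passed in every comparison.

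Abcb1b was far lower and did not follow its neighbour with ABX. It lay between 0.837 and 2.72 CPM, and its TPM was 36.8 to 283 times under that of Abcb1a. Its group means were 1.60 ± 0.463 CPM on CD, 2.08 ± 0.503 on TDD, 1.17 ± 0.206 on CD+ABX and 1.37 ± 0.277 on TDD+ABX (SD, n = 5). With and without ABX the mean was higher on TDD than on CD, the direction of Abcb1a. In CPM the groups overlapped in each comparison, and edgeR called the gene in no comparison. In TPM, Abcb1b was lower in CD+ABX mice (0.518 to 0.607) than in CD mice (0.681 to 0.856) or TDD+ABX mice (0.693 to 1.33). Its log2 fold change for ABX was -0.46 on CD (SE 0.21, q = 0.174) and -0.60 on TDD (SE 0.21, q = 0.0579, edgeR), opposite in sign to that of Abcb1a. For ABX on TDD, DESeq2 called it lower (-0.59, q = 0.0406), as did edgeR in 3 of the 20 fits that left out 1 mouse (without CD mouse 4, TDD mouse 1 or TDD+ABX mouse 5, q = 0.0447, 0.0270 and 0.0304). The third gene of the cluster, Abcb4, which carries phosphatidylcholine into bile, was at or under 0.237 TPM.

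**Figure D3:**
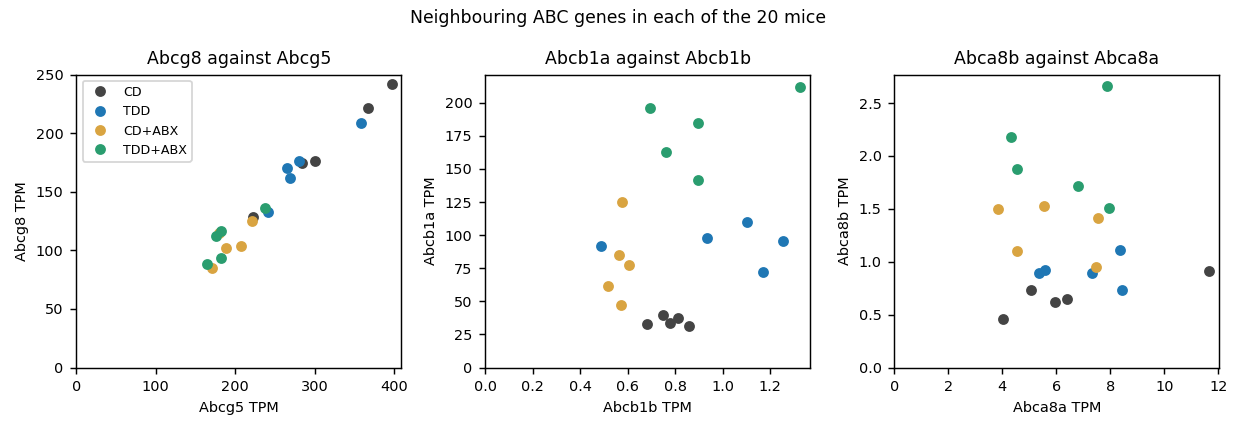
TPM of neighbouring ABC genes plotted against each other, 1 point per mouse and 1 colour per group. Abcg8 follows Abcg5 in a ratio of 0.499 to 0.643, whereas the ratios of Abcb1a and Abca8b to their neighbours differ between groups. Abcb1b itself is lower on CD+ABX (0.518 to 0.607 TPM) than on CD (0.681 to 0.856 TPM).

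Among the other multidrug efflux genes, Abcc5 (chromosome 16, 20331303 to 20426394, minus strand), an exporter of cyclic nucleotides and nucleotide analogues, had the lowest q of the family for TDD. It stood at 26.8, 24.8, 23.1, 23.2 and 17.8 CPM in CD mice and at 46.6, 39.8, 53.0, 40.7 and 41.5 CPM in TDD mice. With ABX it stood at 32.9, 34.7, 26.5, 29.2 and 42.4 CPM on CD and at 35.6, 41.4, 38.2, 37.9 and 38.5 CPM on TDD. All TDD mice lay above all CD mice without ABX, whereas the diets overlapped with ABX. Its log2 fold change for TDD was 0.94 in SPF mice (SE 0.12, q = 5.6e-05) and 0.21 in ABX-treated mice (SE 0.12, q = 0.420, edgeR). The difference between these effects had an unadjusted p of 0.000281 and q = 0.112 in edgeR's quasi-likelihood test, and q = 0.0123 in DESeq2, so whether the diet effect on Abcc5 differed with ABX depended on the tool.

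Abcc5 also rose with ABX on CD, by 0.52 on the log2 scale (SE 0.12, q = 0.00698, edgeR), and did not pass on TDD (-0.21, q = 0.229). Without the 5 mice with liver or pancreas transcripts the value on CD was 0.43 (q = 0.0852, edgeR). Most of its TPM did not come from coding transcripts. Its most abundant transcript was one with a retained intron, and protein-coding transcripts held 17.9% ± 5.65 of its TPM on CD, 20.1% ± 1.77 on TDD, 21.9% ± 2.39 on CD+ABX and 22.7% ± 3.51 on TDD+ABX (SD, n = 5). The TPM of the coding transcripts alone was 1.84 ± 0.523 on CD, 3.79 ± 0.477 on TDD, 3.18 ± 0.611 on CD+ABX and 3.72 ± 0.120 on TDD+ABX (SD, n = 5), in the same order as the gene.

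Abcg2, the breast cancer resistance protein, passed in no comparison, with group means of 116 to 139 CPM and log2 fold changes of -0.24 to -0.03. Abcc1, a basolateral exporter of conjugates, did not pass either. It stood at 8.83 to 11.97 CPM in CD+ABX mice and 13.0 to 13.9 CPM in TDD+ABX mice, without overlap (log2 fold change 0.27, SE 0.12, q = 0.293, edgeR). Abcb1a and Abcc1 were the 2 members without overlap between the diets with ABX, where 4.78% of all genes tested had none. Abcc10, another efflux pump, fell with ABX on TDD by 0.32 on the log2 scale (SE 0.09, q = 0.0261, edgeR), and leaving out single mice moved its q to between 0.0161 and 0.0927.

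**Figure D4:**
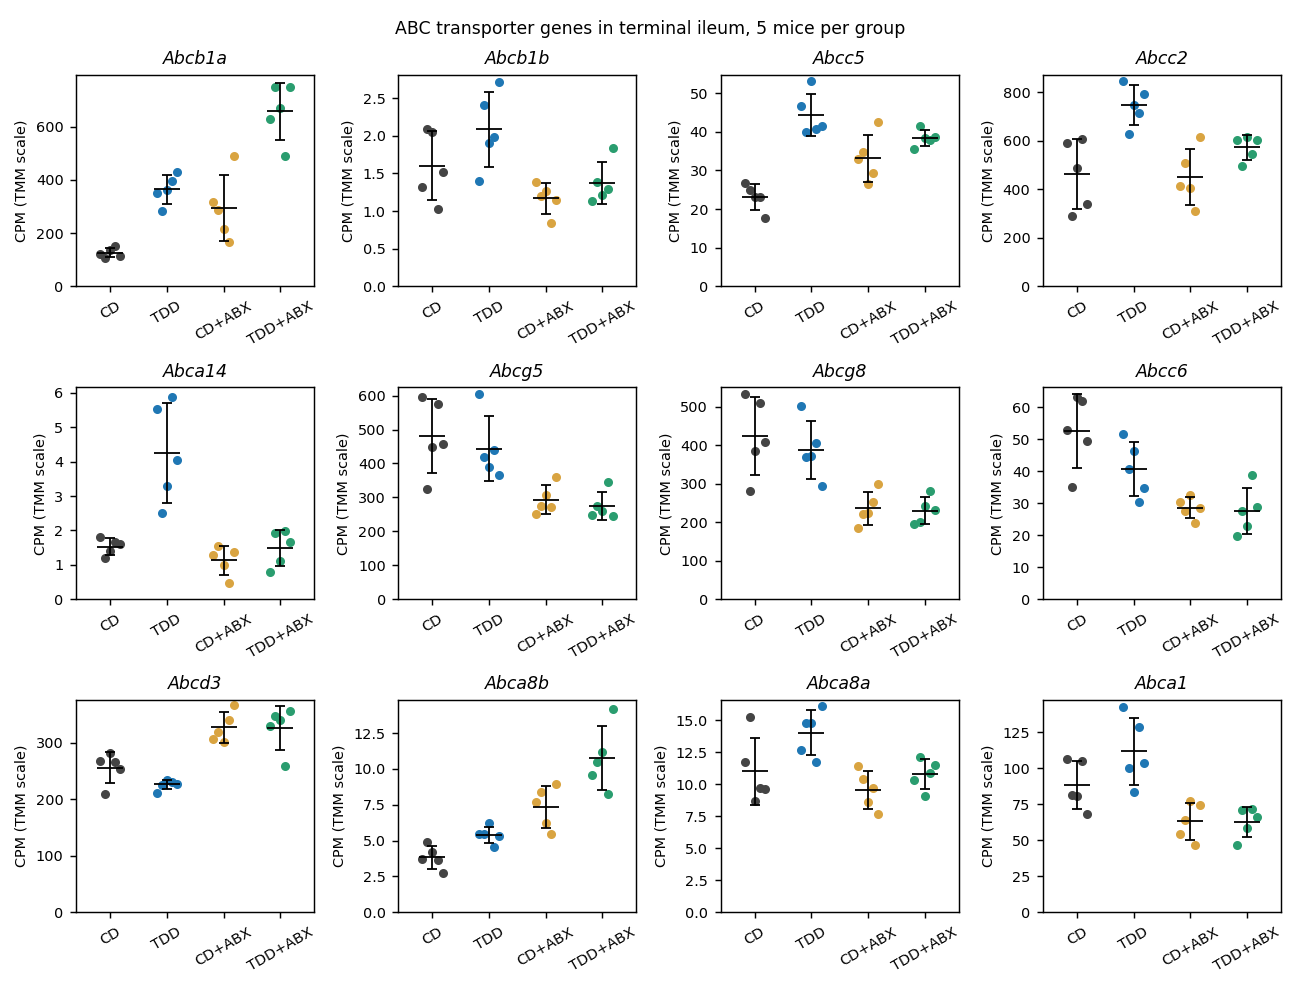
CPM on the TMM scale of 12 ABC genes in each of 5 mice per group. Points are mice, with the mean and SD in black, and each axis starts at 0. TDD+ABX mice lead for Abcb1a and Abca8b, TDD mice for Abca14, and both ABX groups lie low for Abcg5, Abcg8 and Abcc6.

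Among the exporters of bile salts and organic anions, 2 of the 4 tested rose with TDD in SPF mice, and with ABX 1 of 4 fell on CD and 2 on TDD. The other values with ABX were below 0 without passing. Among all genes tested, 6.7% passed as higher with TDD, and 7.43% and 8.3% as lower with ABX on CD and TDD. Abcc2 (chromosome 19, 43782192 to 43840740, plus strand), the canalicular and luminal pump for glucuronide and glutathione conjugates, stood at 591, 291, 487, 609 and 341 CPM in CD mice. In TDD mice it stood at 846, 627, 749.9, 716 and 794 CPM. Every TDD mouse lay above every CD mouse, and the CD mice spread widely. The log2 fold change was 0.69 (SE 0.19, q = 0.0191, edgeR), and without CD mouse 5 q was 0.0662, the one such fit in which it was lost. Without the 5 mice with liver or pancreas transcripts it was 0.57 (q = 0.217, edgeR). With ABX, Abcc2 stood at 414, 511, 406, 311 and 616 CPM on CD and at 605, 496, 618, 548 and 604 CPM on TDD, which overlapped (log2 fold change 0.35, SE 0.19, q = 0.406, edgeR).

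Abcc4, which exports cyclic nucleotides and bile acids on the basal side, rose with TDD in SPF mice from 6.39 ± 0.824 to 8.15 ± 0.811 CPM (SD, n = 5; log2 fold change 0.35, SE 0.10, q = 0.0217, edgeR). It fell with ABX on TDD by 0.32 on the log2 scale (q = 0.0324, edgeR). The groups overlapped in both comparisons, and q exceeded 0.05 in 4 and 6 of the 20 fits that left out 1 mouse. Both calls were also lost in both fits of log2 TPM with limma and where only the groups compared were fitted. Without the 5 mice with liver or pancreas transcripts q was 0.166 and 0.182 (edgeR). Abcc3, a basolateral bile acid exporter, was 43.2 ± 8.33 CPM on TDD and 34.9 ± 4.15 on CD (SD, n = 5; log2 fold change 0.31, q = 0.1004) and did not pass. Leaving out TDD mouse 1 gave q = 0.0263 (edgeR). Abcc6 (chromosome 7, 45967555 to 46030302, minus strand) is a transporter of the basal membrane that promotes ATP release, and with TDD in SPF mice it did not pass (log2 fold change -0.37, q = 0.183, edgeR) except without CD mouse 2 (q = 0.0468). Abcc6 stood at 53.0, 35.0, 63.4, 62.0 and 49.5 CPM in CD mice and at 30.5, 27.5, 32.6, 23.9 and 28.6 CPM in CD+ABX mice. These groups did not overlap (log2 fold change -0.88, SE 0.18, q = 0.00393, edgeR). On TDD it fell with ABX by 0.56 on the log2 scale (SE 0.18, q = 0.0397, edgeR), which was lost in 8 of 20 fits that left out 1 mouse.

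Abcg5 and Abcg8 fell together with ABX on both diets. They lie head to head on chromosome 17 of GRCm38, Abcg5 at 84658234 to 84683011 on the minus strand and Abcg8 at 84676302 to 84700333 on the plus strand. GENCODE M21 gives Abcg8 a first transcript start inside Abcg5, whereas in RefSeq on GRCm38.p6 the starts of both genes have 109 bases between them. The sequence between the starts, chr17:84683012-84683120, is given on the plus strand because any promoter elements there lie close to the starts of both genes. Capitals mark matches to GATAA, the core of the motif read by GATA factors, here on the minus strand as TTATC.
Abcg5 to Abcg8: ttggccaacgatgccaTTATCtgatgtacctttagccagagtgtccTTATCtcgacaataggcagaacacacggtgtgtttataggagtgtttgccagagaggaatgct
The stretch holds 2 matches to GATAA on either strand, and 0.788% of 32851 promoter windows of the same length held at least as many (9.36% held at least 1). It also holds 1 match to TATAAA, as did 5.90% of windows. Searches on both strands for AGGTCA, a nuclear receptor site, for GCGTG, the core read by AhR, for GGGCGG, the GC box, for the CCAAT box and for CACGTG, the E-box, found no match in these letters. A match is a description of the sequence and no evidence of binding.

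Abcg5 stood at 596, 326, 449.9, 575 and 459 CPM in CD mice and at 252, 273, 308, 271 and 360.1 CPM in CD+ABX mice. On TDD it stood at 605, 419, 389, 440.2 and 366 CPM without ABX and at 248, 275, 259.6, 346 and 246 CPM with ABX. On TDD the groups did not overlap, and on CD only CD mouse 2, the mouse with the lowest enterocyte markers, fell within the range of the treated mice. The log2 fold change for ABX was -0.72 on CD (SE 0.16, q = 0.00674) and -0.69 on TDD (SE 0.16, q = 0.00856, edgeR).

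Abcg8 stood at 533, 281, 384, 509 and 408 CPM in CD mice and at 185, 220.3, 223, 254 and 300.045 CPM in CD+ABX mice. On TDD it stood at 502, 368, 373, 405 and 294 CPM without ABX and at 194, 201, 242, 282 and 231 CPM with ABX. The overlap was again that of CD mouse 2 alone. With ABX its log2 fold change was -0.84 on CD (SE 0.17, q = 0.00359) and -0.75 on TDD (SE 0.17, q = 0.00728, edgeR). Diet left both genes without a call, at -0.12 for each in SPF mice (SE 0.16 and 0.17), and at -0.09 and -0.04 with ABX. The ratio of Abcg8 to Abcg5 TPM was 0.598 ± 0.0161 on CD, 0.602 ± 0.0364 on TDD, 0.550 ± 0.0585 on CD+ABX and 0.582 ± 0.0579 on TDD+ABX (SD, n = 5), and 0.499 to 0.643 over the 20 mice. The genes share 82 exonic bases on opposite strands, from which reads counted without strand could be assigned to either.

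Of 7 enterocyte markers, 2 passed with ABX on each diet beside this pair, where 12.8% of all genes tested passed on CD and 15.5% on TDD. Fabp2 went upwards (1.20 on CD and 1.22 on TDD, log2) and Sis, sucrase-isomaltase, downwards (-1.03 and -0.74). The summed level of the 7 markers ran from 13309 to 23987 CPM on CD, 19610 to 22424 on TDD, 18068 to 28154 on CD+ABX and 21258 to 22988 on TDD+ABX. Without the 5 mice with liver or pancreas transcripts, the log2 fold change on CD was -0.63 for Abcg5 (q = 0.0946) and -0.71 for Abcg8 (q = 0.0604, edgeR), and on TDD both still passed. The segment markers Slc10a2 and Fabp6 also differed with ABX. Slc10a2 stood at 1.38 to 8.80 CPM in SPF mice and at 13.2 to 86.1 CPM in ABX-treated mice. Whether the sampled segment differed, and its part in the fall of the pair, was not tested.

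The other sterol and phospholipid exporters were less uniform. Abca1 (chromosome 4, 53030787 to 53159895, minus strand), which loads cholesterol onto apolipoprotein A-I, stood at 142, 100.2, 83.6, 128 and 104 CPM in TDD mice and at 46.7, 70.6, 58.7, 71.8 and 66.0 CPM in TDD+ABX mice. The groups did not overlap (log2 fold change -0.83, SE 0.17, q = 0.00375, edgeR). On CD it was 88.2 ± 16.6 CPM without and 63.2 ± 12.9 CPM with ABX (SD, n = 5; log2 fold change -0.48, SE 0.17, q = 0.0649, edgeR). This was called by DESeq2 (-0.47, q = 0.0447) and by edgeR without CD mouse 5 (q = 0.0470). The interaction was -0.35 (q = 0.719), so the effect was not shown to differ between the diets. Abca1 is also expressed by macrophages, 2 of whose 5 markers fell with ABX on TDD, from a summed 82.7 to 127 CPM to 81.6 to 89.6 CPM. Their part in the result was not tested. Abcg1, Abca7, Abcg4 and Abcb4 passed in no comparison, and of the 7 genes of this group 2 passed with ABX on CD and 3 on TDD, all lower, where 7.43% and 8.3% of all genes tested passed as lower.

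Abca14 (chromosome 7, 120203961 to 120325352, plus strand) was low in all groups, and higher in TDD mice than elsewhere. It stood at 1.82, 1.19, 1.40, 1.65 and 1.60 CPM in CD mice and at 5.52, 2.498, 3.29, 5.89 and 4.05 CPM in TDD mice. With ABX it stood at 1.28, 1.53, 0.983, 0.487 and 1.38 CPM on CD and at 0.785, 1.92, 1.12, 1.97 and 1.65 CPM on TDD. Every TDD mouse lay above all 15 mice of the other groups. The log2 fold change was 1.47 for TDD in SPF mice (SE 0.30, q = 0.00278) and -1.51 for ABX on TDD (SE 0.30, q = 0.0032, edgeR). Without the 5 mice with liver or pancreas transcripts these were 1.31 (q = 0.0640) and -1.33 (q = 0.0384, edgeR). The interaction was -1.07 (SE 0.42, unadjusted p = 0.0190, q = 0.417, edgeR) and did not pass. Its neighbours Abca15 and Abca16 were not tested, with at most 2 counts in any mouse.

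Abca8b (chromosome 11, 109932190 to 109995845, minus strand), linked to cholesterol efflux, rose with ABX on both diets. It stood at 3.69, 4.91, 4.19, 3.67 and 2.72 CPM on CD and at 7.72, 8.39, 6.22, 5.45 and 8.96 CPM on CD+ABX. On TDD it stood at 5.45, 5.46, 6.19, 4.54 and 5.30 CPM without ABX and at 9.55, 10.5, 11.2, 8.28 and 14.2 CPM with ABX. Treated and untreated mice did not overlap on either diet. For ABX the log2 fold change was 0.94 on CD (SE 0.17, q = 0.00158) and 0.99 on TDD (SE 0.17, q = 0.00123, edgeR), and both passed in every fit. For TDD it was 0.49 in SPF mice (q = 0.0549) and 0.55 with ABX (q = 0.0966, edgeR), and DESeq2 called both (q = 0.0343 and 0.0341). Its neighbour Abca8a, with 74.8% identity over 4824 aligned coding bases, had log2 fold changes of the opposite sign for ABX, at -0.38 on TDD (q = 0.0740, edgeR), and did not pass. It was called where only the groups compared were fitted (q = 0.0411) and without CD mouse 2 (q = 0.0345, edgeR). The ratio of Abca8b to Abca8a TPM ran from 0.0781 to 0.146 on CD and from 0.190 to 0.505 on TDD+ABX. This ratio includes transcripts that are not coding. Protein-coding transcripts held 100% of the TPM of Abca8b, but on average 39.7% of that of Abca8a on CD and 41.8% on TDD+ABX. Mean coding TPM on CD was 0.675 for Abca8b and 2.46 for Abca8a, and on TDD+ABX 1.99 and 2.47.

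Of the other Abca genes, Abca3, a phospholipid transporter known from lamellar bodies of the lung, fell with ABX on TDD from 79.7 ± 9.92 to 56.0 ± 7.55 CPM (SD, n = 5; log2 fold change -0.51, SE 0.10, q = 0.00358, edgeR), without overlap. On CD it fell by 0.32 on the log2 scale (q = 0.0426, edgeR), and this was lost in 15 of the 20 fits that left out 1 mouse. Abca5 fell with ABX on TDD from 3.61 ± 0.649 to 2.24 ± 0.306 CPM (SD, n = 5; log2 fold change -0.69, SE 0.18, q = 0.0152, edgeR), also without overlap. This call was lost in both fits of log2 TPM with limma. Of the 10 Abca genes outside the sterol group that were tested, 9 were lower and 1 higher with ABX on each diet, and the 1 was Abca8b. Some of the 9 stayed under 1 CPM in every mouse, so their direction rests on few counts. Of the 9, 1 passed as lower on CD and 3 on TDD. Over the 16306 genes tested, 8329 were lower with ABX on CD and 8886 on TDD, whether or not they passed.

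Among peroxisomal and lysosomal members, Abcd3 (chromosome 3, 121758774 to 121815302, minus strand) rose with ABX on both diets. It stood at 267, 209, 281, 266 and 253 CPM on CD and at 307, 318, 302, 340.0 and 367 CPM on CD+ABX. On TDD it stood at 211, 226, 235, 231 and 227 CPM without ABX and at 330.1, 347, 339, 258 and 357 CPM with ABX. The groups overlapped on neither diet. The log2 fold change was 0.36 on CD (SE 0.09, q = 0.0116) and 0.53 on TDD (SE 0.09, q = 0.00117, edgeR), and without the 5 mice with liver or pancreas transcripts q was 0.0722 on CD and 0.0215 on TDD. In SPF mice 5 members had no overlap between the diets, among them Abcb1a, Abcc5, Abcc2 and Abca14, where 9.58% of all genes tested had none. Abcd2, Abcd4 and the lysosomal peptide transporter Abcb9 did not pass in edgeR in any comparison. For ABX on TDD, Abcd4 was called in both fits of log2 TPM with limma (q = 0.0224 and 0.0229), and Abcd2 where only the groups compared were fitted (q = 0.0257, edgeR).

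For ABX, 5 members had no overlap on CD, where 9.74% of all genes had none, and 11 on TDD, where 11% had none. The 11 were Abca1, Abca3, Abca5, Abca8b, Abca14, Abcb1a, Abcc2, Abcd3, Abcf1, Abcg5 and Abcg8, of which Abcc2 did not pass (log2 fold change -0.38, q = 0.177, edgeR) except where only the groups compared were fitted (q = 0.0223).

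Of the 4 ribosome-associated genes, 2 rose with ABX on CD and 3 on TDD, in small steps, and the other log2 fold changes were above 0 without passing. Among all genes tested 5.35% and 7.19% passed as higher. Abcf1, which promotes translation initiation, was 115 ± 6.30 CPM on CD and 127 ± 5.64 on CD+ABX, and 118 ± 5.18 on TDD and 138 ± 3.09 on TDD+ABX (SD, n = 5). Its log2 fold change was 0.15 on CD (q = 0.0385, lost in 11 of 20 fits that left out 1 mouse) and 0.24 on TDD (SE 0.05, q = 0.00344, edgeR), without overlap on TDD. Abcf3, related to a yeast activator of translation control, rose on CD by 0.25 (SE 0.06, q = 0.00637) and was at 0.16 on TDD (q = 0.0568, edgeR). The call on CD was lost in both fits of log2 TPM. On TDD Abcf3 was called by DESeq2 (q = 0.0218), with RLE scaling (q = 0.0424), with 0.5 CPM required in 5 mice (q = 0.0390) and in both fits of log2 TPM (q = 0.0124 and 0.0130). On TDD, Abcf2 rose by 0.25 (q = 0.0261) and the ribosome recycling factor Abce1 by 0.42 (q = 0.0308, edgeR), and these were lost in 4 and 6 of the 20 fits that left out 1 mouse and with upper-quartile scaling. Abce1, Abcf1 and Abcf2 share 31-base words with the loci Gm6640, Gm8844 and Gm8345 (3.88%, 4.35% and 8.11% of their words), to which some of their reads could be assigned.

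Of 4 mitochondrial members 1 passed in any comparison, and of 2 potassium channel regulators 0 did. Among all genes tested, 14.4% passed with TDD in SPF mice and 1.77% with TDD in ABX-treated mice. With ABX, 12.8% passed on CD and 15.5% on TDD. Abcb6 and Abcb8, transporters linked to heme and iron-sulfur clusters, passed in no comparison, with log2 fold changes between -0.15 and 0.07. Abcb10, needed for heme synthesis, rose with ABX on CD by 0.26 (SE 0.07, q = 0.0184, edgeR; q = 0.0701 without the liver or pancreas mice) and was at -0.01 on TDD, with an interaction of -0.27 (unadjusted p = 0.0116, q = 0.355, edgeR). Abcc8 and Abcc9 encode sulfonylurea receptors, the latter typical of smooth muscle and vessels. Abcc9 varied within groups, from 6.40 to 46.6 CPM among CD mice, and its extremes were CD mouse 5 and CD mouse 2, which also had the lowest and the highest smooth muscle sums of the 20 mice (828 and 3305 CPM).

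Regulators and partners of these transporters, 24 genes listed for their known links, were counted beside them. With TDD in SPF mice 5 of the 24 passed, where 14.4% of all genes tested did. The nuclear receptors Nr1i3 and Ppara rose (log2 fold change 0.52 and 0.60, q = 0.00317 and 0.00649), as did Mylip, a target of oxysterol receptors, and the peroxisome gene Pex3 (0.51 and 0.19, q = 0.0230 and 0.0439). Srebf1, a driver of lipid synthesis, fell by 0.38 (q = 0.0098, edgeR). With TDD in ABX-treated mice 0 of 24 passed in edgeR, where 1.77% of all genes tested did, and 4 of 24 had an unadjusted p under 0.05, as did 14.8% of all genes.

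With ABX, 7 of the 24 passed on CD and 5 on TDD, where 12.8% and 15.5% of all genes tested did. The ileal bile acid uptake carrier Slc10a2 rose on both diets, by 4.07 on CD and 2.65 on TDD on the log2 scale (q = 7.59e-05 and 0.00108), and so did the bile acid binding protein Fabp6, by 5.14 and 3.92 (q = 0.00431 and 0.0163, edgeR). Both genes also mark the sampled segment, whose part in these results was not tested. The basolateral bile acid carriers Slc51a and Slc51b rose on CD (0.56 and 0.44, q = 0.0320 and 0.0314, edgeR). Of the oxysterol receptors, which are known to drive Abca1, Abcg5 and Abcg8, Nr1h3 rose on both diets (0.27 and 0.52, q = 0.0230 and 0.000408) and Nr1h2 fell on both (-0.20 and -0.19, q = 0.0343 and 0.0447, edgeR). Srebf1 fell on CD (-0.49, q = 0.0026) and Pex3 on TDD (-0.21, q = 0.0249, edgeR). Npc1l1, which takes up the sterols that Abcg5 and Abcg8 return, and the receptors Nr1h4, Nr1i2, Rxra and Ahr passed in no comparison.

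A further 3 ABC genes carry other symbols and were outside the rule. Tap1 and Tap2 load peptides for antigen presentation, and Cftr is a chloride channel. On the log2 scale Tap1 fell by 0.69 with TDD in SPF mice (q = 0.00471) and by 0.55 with ABX on CD (q = 0.0196). Tap2 fell with ABX by 0.40 on CD (q = 0.0187) and by 0.43 on TDD (q = 0.0130, edgeR), and Cftr passed in no comparison. Of 5 T cell markers, 0 passed with TDD in SPF mice (2 at an unadjusted p under 0.05), 4 fell with ABX on CD and 3 with ABX on TDD (edgeR), with summed T cell levels of 28.9 to 83.7 CPM on CD, 26.2 to 38.6 on TDD, 17.0 to 22.1 on CD+ABX and 15.5 to 27.2 on TDD+ABX. Among all genes tested, 7.73% passed as lower with TDD in SPF mice, 7.43% with ABX on CD and 8.3% with ABX on TDD. The part of T cells in these results was not tested.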

How the data were processed

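Terminal ileum RNA of 20 mice was measured, 5 in each of 4 groups named in the labels. The authors assigned reads to GRCm38 transcripts with kallisto 0.44.0 and deposited, without further scaling, the estimated counts of each gene and the TPM of each transcript. Estimated counts were rounded to whole numbers, genes reaching 0.5 CPM in 1 mouse or more were kept, and the 4 groups entered 1 fit with TMM scaling in edgeR 4.0.16 (R 4.3.3, quasi-likelihood test, Benjamini-Hochberg adjustment over 16306 genes). Standard errors are the log2 fold change divided by the square root of F. Gene TPM is the sum over a gene's transcripts by GENCODE M21 names, which matched 98.5% of transcripts. Reads that fit several genes were split by kallisto, which can shift levels between close paralogs.

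The ABC genes, role lists and tests were chosen with earlier results of these data known. Genes named were those that passed (at most 12 per comparison), the 10 highest by TPM and all members of the role groups. Others named (Abca15, Abca16, Abca8a and the untested genes) were added after their values were seen. Alternatives were RLE and upper-quartile scaling, other filters, DESeq2 1.42.0, limma 3.58.1 (voom, log2(TPM + 1) and log2(TPM + 0.1)), only the groups compared, a replicate block, a 2-fold limit, leaving out each mouse and, added after seeing the data, leaving out 5 mice with liver or pancreas transcripts (over 5 CPM of a marker). On simulated counts of 16306 genes with 200 changed, 87% of 2-fold and 99% of 4-fold changes were recovered. Results of 2 members are not reported here by name.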

Additional observations from a re-analysis of the deposited data

Results flagged for a closer look

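Within groups of 5 mice, a single mouse stood apart from the other 4 (Dixon's criterion at 95%) in 12 of 136 checks of a gene in a group, where chance alone flags about 1 in 20. CD mouse 2 accounted for 4 of them. It was lowest for Abca7 (54.2 CPM, others 63.9 to 66.5) and Abcg2 (104, others 140.5 to 155), and highest for Abcc1 (15.6, others 10.1 to 10.5) and Abcf2 (43.2, others 35.1 to 36.9). This mouse also had the lowest summed enterocyte markers and the highest summed smooth muscle markers of the 20, and the part of this makeup in the gaps was not tested.

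CD+ABX mouse 5 was lowest for Abcc1 (8.83 CPM, others 11.2 to 11.97) and Abce1 (64.5, others 78.7 to 84.0) and highest for Abcf1 (137, others 123 to 127), with the highest enterocyte sum, 28154 CPM. TDD+ABX mouse 4 was highest for Abca3 (69.4 CPM, others 51.1 to 53.6) and Abcc10 (46.0, others 38.3 to 39.8) and lowest for Abcd3 (258, others 330.1 to 357). This mouse also had the lowest Fabp6, Slc10a2 and Fabp2 of its group (3.34, 13.2 and 4518 CPM). Its Sis was the highest of the group (6275 CPM), and the part of this makeup in the gaps was not tested. TDD mouse 1 was highest for Abca3 (96.9 CPM, others 71.7 to 78.6), and CD mouse 5, which held pancreas transcripts, was highest for Abcf1 (126 CPM, others 110.1 to 114).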

How the results depend on the processing

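Of 32 calls of a gene in a comparison, 0 reversed under any alternative, 22 held in all 20 fits that left out 1 mouse, and 13 held in those and in every other fit. The 2-fold limit is not among these fits, and it kept 5 of the 32 calls. With TDD in SPF mice the count of 5 became 3 when only the groups compared were fitted, 2 at a 2-fold limit, 2 without the 5 mice with liver or pancreas transcripts, and 4 to 10 when single mice were left out. The 10 came without CD mouse 2, when Abca8a, Abca8b and Abcc1 (higher) and Abcc6 and Abcd3 (lower) passed too. With TDD in ABX-treated mice the count of 1 became 2 with DESeq2, which added Abca8b, and 0 without the liver or pancreas mice (7 of 43 at an unadjusted p under 0.05), and stayed at 1 to 1 when single mice were left out. For ABX on CD the count of 11 became 6 without those mice, 1 at a 2-fold limit and 8 to 12 without single mice. For ABX on TDD the count of 15 became 1 at a 2-fold limit and 10 to 17 without single mice. The interaction count of 0 became 1 with DESeq2 and stayed at 0 to 0 otherwise. Leaving out the liver or pancreas mice removes 1 CD, 2 TDD and 2 CD+ABX mice, so fewer mice were tested, and the cause of the lost calls was not tested.

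Replicate numbers did not pair the mice, with correlations of same-numbered deviations from -0.382 to 0.256. With a replicate block the counts were 5, 1, 10 and 13 in the 4 comparisons and 0 for the interaction.

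With 5 mice per group and changes often under 1.5-fold, members that did not pass are not shown to be unaffected. Levels under about 1 CPM rest on few counts.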
